A study of Mus musculus with 8 samples.

Results

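Amino acid transporters are membrane proteins that move amino acids across the plasma membrane, and 10 of their genes are described here in mouse liver. They were chosen by symbol (Slc7a1, Slc7a2, Slc7a5, Slc3a2, Slc1a4, Slc1a5, Slc38a1, Slc38a2, Slc38a3 and Slc38a4), all 10 were found among the 55536 genes of the count table, and all 10 passed the filter on low counts, which kept 15375 genes. Livers came from lean wild-type C57BL/6 mice aged 2 months. All mice received 0.1 OD of an adenovirus, and the liver was taken 1 week later after an overnight fast. In the control group (n = 4) the knockdown was directed at LacZ, a bacterial gene that mice lack, and in the knockdown group (n = 4) at Eif4ebp3, which encodes a repressor of translation initiation. Both groups therefore carried virus and were fasted, and no uninjected or fed liver is part of the comparison. No label states the route of injection, the sex of the mice or whether each sample is 1 mouse, and the p-values cover only differences among these 8 libraries, which may be technical.

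Hepatocytes take up amino acids from portal blood for protein synthesis, urea formation and gluconeogenesis. Sodium-coupled carriers of the SLC38 family concentrate small neutral amino acids and glutamine, cationic carriers of the SLC7 family bring in arginine and lysine, and the neutral exchangers of the SLC1 family and the 4F2 heterodimers swap one amino acid for another across the membrane. Some members, such as Slc38a4 and Slc7a2, are known as liver carriers, whereas Slc7a1, Slc7a5, Slc1a5 and Slc38a1 are best known from growing cells, lymphocytes and other tissues. Several genes of these families are known targets of ATF4, the transcription factor of the amino acid response, which binds with its partners to an element called CARE.

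Promoters are shown for members that rose and members that fell, and the CARE core was looked for in them. RefSeq promoter windows (GRCm38.p6) were matched for 5 of the 10 members. Each sequence below runs 5′ to 3′ on the gene's strand, from 120 bases before to 20 bases after a transcription start, and capitals mark a match to TGATGNAA (N is any base) on either strand. The Slc7a11 promoter, of a cystine carrier that is no member but shares its heavy chain with Slc7a5, is shown for comparison.
Slc1a4 (chr11:20332694-20332833, minus strand, higher in the knockdown): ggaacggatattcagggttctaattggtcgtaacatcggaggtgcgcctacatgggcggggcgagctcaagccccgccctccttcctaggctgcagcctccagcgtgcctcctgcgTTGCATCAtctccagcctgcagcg
Slc7a11 (chr3:50443594-50443733, minus strand, higher): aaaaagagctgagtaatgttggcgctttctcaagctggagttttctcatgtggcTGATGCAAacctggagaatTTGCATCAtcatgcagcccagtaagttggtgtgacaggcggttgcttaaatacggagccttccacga
Slc7a1 (chr5:148399885-148400024, minus strand, higher): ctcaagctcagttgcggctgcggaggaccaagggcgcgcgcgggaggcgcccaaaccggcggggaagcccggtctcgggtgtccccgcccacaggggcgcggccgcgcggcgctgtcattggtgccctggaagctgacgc
Slc3a2 (chr19:8713878-8714017, minus strand, higher): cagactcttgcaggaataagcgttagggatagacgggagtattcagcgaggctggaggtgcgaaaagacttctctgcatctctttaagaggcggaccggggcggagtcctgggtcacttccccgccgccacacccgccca
Slc38a2 (chr15:96699709-96699848, minus strand, lower): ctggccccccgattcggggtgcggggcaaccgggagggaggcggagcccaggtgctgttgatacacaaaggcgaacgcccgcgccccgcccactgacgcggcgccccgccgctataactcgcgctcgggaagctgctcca
Slc38a4 (chr15:97055937-97056076, minus strand, lower): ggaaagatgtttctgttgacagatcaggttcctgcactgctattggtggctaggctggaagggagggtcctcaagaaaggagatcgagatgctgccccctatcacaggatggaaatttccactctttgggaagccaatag
Of the 5 members with a window, 1, Slc1a4, held the motif in its 300 bases (250 before and 50 after the start), as TTGCATCA on the other strand across the start itself, from position -4 to 4. Slc7a11 held 2 matches, at -66 to -59 and at -47 to -40. Among all 27025 genes with a window, 4.51% held the motif. The motif was also counted in the members and the other SLC1, SLC3, SLC7 and SLC38 transporters described below. Of those with a window, 3 of 9 that rose held it (Slc1a4, Slc7a11 and Slc7a7). It was held by 0 of 6 that fell and 0 of 3 that did not pass the test. Slc7a11 had 1, 2, 1 and 9 counts in the controls and passed the count filter through the knockdown samples. It could therefore be called only as a gene that rose. Slc7a7 was named here after its values were seen. These shares were not tested, and no conclusion is drawn from their difference. The SLC6, SLC16, SLC36 and SLC43 genes and the lysosomal exporters described below were not part of this count. A match is a description of letters in this window, and elements elsewhere in these genes were not searched.

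Each library held 24189202 to 32073994 estimated counts on named genes. Eif4ebp3 (ENSMUSG00000090264) held 289, 216, 204 and 49.3 CPM (counts scaled by library size and by a normalisation factor) in the 4 controls, in order of replicate number, against 9.62, 13.9, 37.2 and 19.5 CPM after the knockdown. Each knockdown library thus lay below each control, although 67.3% of its exon bases are shared with AC115631.1 on the same strand. Control replicate 4 was the lowest control and knockdown replicate 3 the highest knockdown sample. Over all 15375 genes tested, 57.2% passed edgeR's quasi-likelihood test at a Benjamini-Hochberg adjusted p under 0.05, with 29.5% higher and 27.8% lower in the knockdown. For 52.1% the groups were apart in CPM, 27.4% with the knockdown above and 24.7% with it below. Changes are relative to the median gene: scaling by total count alone moved that median by 0.567 (log2), with 63.9% then higher and 7.72% lower. Of 14 hepatocyte markers found, 0 were at 0 counts in every sample, and their summed level was 84388 to 107055 CPM in the controls and 70419 to 91476 CPM in the knockdown samples. These sums depend on the normalisation factors, 0.776 to 0.890 in the controls and 1.15 to 1.26 in the knockdown samples. Alb, at 40862 CPM in the controls on average, changed by 0.04 (log2), but by 0.61 under total-count scaling, where it was called higher. Under that scaling 3 of the 14 markers rose and 7 fell.

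Of the 10 transporters, 5 rose (Slc1a4, Slc38a1, Slc7a1, Slc1a5 and Slc3a2), 4 fell (Slc7a2, Slc38a4, Slc38a3 and Slc38a2), and Slc7a5 did not pass the test. Read against 57.2% of all genes called, 9 of 10 called is more than the background share. The members were chosen with earlier results of these data known, so this excess can follow from the choice, and nothing is drawn from it. The median log2 fold change, 0.63 against -0.0032 for all genes, lies between Slc7a5 and Slc3a2 in a set that moved both ways and is no shift of the group. The members that fell were the 4 with the highest level per length in the controls, and the members that rose stood below them. Under total-count scaling 6 rose, Slc7a5 among them, and 3 fell, Slc38a2 losing its call. In bulk liver, fewer cells of a type and less RNA per cell cannot be told apart.

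Most marker lists of other liver cells held more genes that rose than fell, whereas most endothelial markers did not pass the test. Of 19 macrophage markers tested, 18 rose and 0 fell, with a summed level of 841 to 1047 CPM in the controls and 2166 to 2566 CPM in the knockdown samples. Of 19 T and NK cell markers, 17 rose and 1 fell, and their sum went from 26.5 to 50.8 CPM to 88.2 to 119 CPM. All 16 proliferation markers rose, from 62.1 to 110 CPM to 269 to 379 CPM. Of 15 stellate cell and fibroblast markers, 9 rose and 1 fell (327 to 421 CPM against 680 to 1145 CPM), and of 13 cholangiocyte markers, 10 rose and 1 fell (72 to 93.7 against 119 to 161 CPM). Of 15 endothelial markers, 1 rose and 3 fell (573 to 636 against 363 to 653 CPM). Among 14 hepatocyte markers, 0 rose and 11 fell, and under total-count scaling 3 rose and 7 fell. That scaling also turned the endothelial counts to 6 rising and 0 falling. No marker found in the table was at 0 in every library. The part of these cells in the rise of Slc7a1, Slc1a4, Slc1a5, Slc38a1 and Slc3a2, and of hepatocyte RNA in the fall of the other 4, was not tested.

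**Figure D1:**
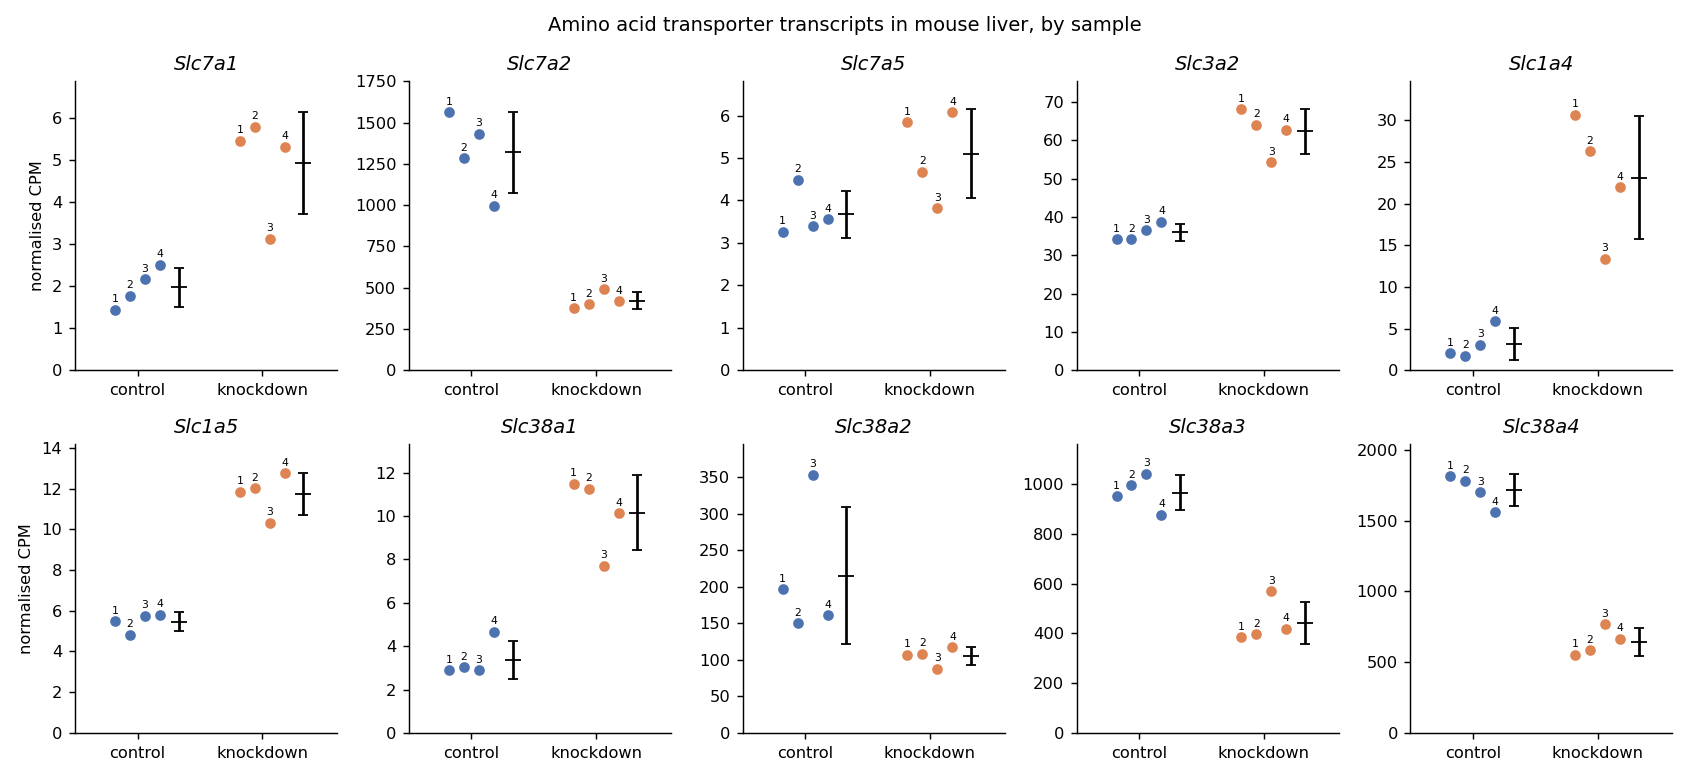
Normalised CPM (vertical axes, from 0) of the 10 transporter genes in the 4 control and 4 knockdown libraries. Points are libraries with their replicate number, the bar beside them is the mean with its SD (n = 4), and the groups overlap only for Slc7a5.

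The cationic carriers moved in opposite directions (gene positions are on mm10). Slc7a2 (ENSMUSG00000031596, chromosome 8, 40862396 to 40922308), a cationic carrier known as abundant in liver, held 1563, 1284, 1434 and 997 CPM in the controls, in order of replicate number, and 376, 399, 492 and 418 CPM in the knockdown samples. Every knockdown library lay below the lowest control, which was replicate 4. Slc7a2 fell by 1.65 ± 0.14 on the log2 scale (SE), 3.13-fold, from 1319 ± 243 to 421 ± 50.5 CPM (SD, n = 4 each; edgeR adjusted p = 5.4e-06). Of its exon bases 6.95% are shared with Gm26584 on the opposite strand, and no source used here says whether counting used strand. Slc7a1 (ENSMUSG00000041313, chromosome 5, 148327410 to 148399904), the cationic carrier of most other tissues, held 1.44, 1.78, 2.16 and 2.51 CPM in the controls and 5.46, 5.79, 3.13 and 5.31 CPM in the knockdown samples. The groups did not overlap, but knockdown replicate 3 lay close to control replicate 4. Slc7a1 rose by 1.32 ± 0.24 (log2, SE), 2.49-fold, on 30 to 55 counts per control library and 91 to 207 per knockdown library (edgeR adjusted p = 0.000813).

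The sodium-coupled SLC38 carriers, which lie on chromosome 15 except for Slc38a3, were split in the same way. Slc38a4 (ENSMUSG00000022464, chromosome 15, 96994820 to 97055956), the system A carrier of hepatocytes, held 1814, 1782, 1699 and 1560 CPM in the controls and 552, 583, 770 and 665 CPM in the knockdown samples. Every control lay above every knockdown library. Slc38a4 fell by 1.42 ± 0.12 on the log2 scale (SE), 2.67-fold (edgeR adjusted p = 3.96e-06).

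Slc38a3 (ENSMUSG00000010064, chromosome 9, 107650634 to 107669530), a glutamine and histidine carrier of system N, held 951, 995, 1042 and 877 CPM in the controls. In knockdown replicates 1 to 4 it held 384, 397, 569 and 419 CPM, replicate 3 being the highest, with no overlap between the groups. It fell by 1.13 ± 0.13 on the log2 scale (SE; edgeR adjusted p = 3.31e-05).

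Slc38a2 (ENSMUSG00000022462, chromosome 15, 96687392 to 96699730), the system A carrier that cells induce on amino acid shortage, held 197, 150, 353 and 161 CPM in the controls and 107, 108, 88.2 and 118 CPM in the knockdown samples. Control replicate 3 stood well above the other controls, and the lowest control lay above the highest knockdown library by less than the SD of the controls. The gene fell by 1.03 ± 0.24 on the log2 scale (SE), from 215 ± 94.2 to 105 ± 12.3 CPM (edgeR adjusted p = 0.00344). Under total-count scaling the difference was -0.45 and did not pass (adjusted p = 0.104).

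Slc38a1 (ENSMUSG00000023169, chromosome 15, 96571418 to 96642913), a glutamine carrier best known from brain and dividing cells, was the SLC38 member that rose. It held 2.88, 3.04, 2.88 and 4.66 CPM in the controls and 11.5, 11.3, 7.7 and 10.1 CPM in the knockdown samples. The groups did not overlap, control replicate 4 being the highest control and knockdown replicate 3 the lowest knockdown sample. Slc38a1 rose by 1.59 ± 0.19 (log2, SE), 3.01-fold (edgeR adjusted p = 5.16e-05).

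Both neutral exchangers of the SLC1 family rose. Slc1a4 (ENSMUSG00000020142, chromosome 11, 20302180 to 20332713), a carrier of serine, alanine and cysteine, held 2.02, 1.73, 3.04 and 5.89 CPM in the controls and 30.7, 26.3, 13.4 and 22 CPM in the knockdown samples. Its lowest knockdown library, replicate 3, was above its highest control, replicate 4. Slc1a4 rose by 2.86 ± 0.36 (log2, SE), 7.25-fold and the most of the 10 genes, from 3.17 ± 1.9 to 23.1 ± 7.38 CPM (SD, n = 4 each; edgeR adjusted p = 6.65e-05). Without both of these libraries the difference was 3.55 (log2).

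Slc1a5 (ENSMUSG00000001918, chromosome 7, 16781340 to 16798274), the glutamine exchanger of proliferating cells, held 5.48, 4.82, 5.76 and 5.8 CPM in the controls and 11.8, 12, 10.3 and 12.7 CPM in the knockdown samples. Its libraries were close together within each group, and the groups did not overlap. It rose 2.15-fold, with an SE of 0.12 on the log2 scale (edgeR adjusted p = 1.97e-05).

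The 4F2 pair consists of Slc3a2, the single-pass heavy chain that brings light chains to the membrane, and Slc7a5, the light chain that exchanges glutamine for leucine and other large neutral amino acids. Slc3a2 (ENSMUSG00000010095, chromosome 19, 8706882 to 8723369) held 34.2, 34.1, 36.6 and 38.8 CPM in the controls and 68.1, 64.1, 54.3 and 62.8 CPM in the knockdown samples. It did not overlap between groups and rose by 0.79 ± 0.09 (log2, SE), 1.73-fold (edgeR adjusted p = 2.2e-05). Slc7a5 (ENSMUSG00000040010, chromosome 8, 121881150 to 121907694) held 3.27, 4.49, 3.4 and 3.56 CPM in the controls and 5.84, 4.68, 3.82 and 6.08 CPM in the knockdown samples, on 66 to 237 counts per library. Control replicate 2 lay above knockdown replicate 3, so the groups overlapped. The difference of 0.47 ± 0.19 (log2, SE) had an unadjusted 95% interval of 0.06 to 0.89 and an adjusted p of 0.0502 with edgeR. It did pass without control replicate 2 (adjusted p = 0.0343), without knockdown replicate 3 (0.0148) and under total-count scaling (1.05, adjusted p = 0.00104, edgeR). It did not pass in 11 of 19 alternatives, among them without knockdown replicate 4 (0.38, adjusted p = 0.136) and in samples coded C alone (0.36, adjusted p = 0.178, edgeR).

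**Figure D2:**
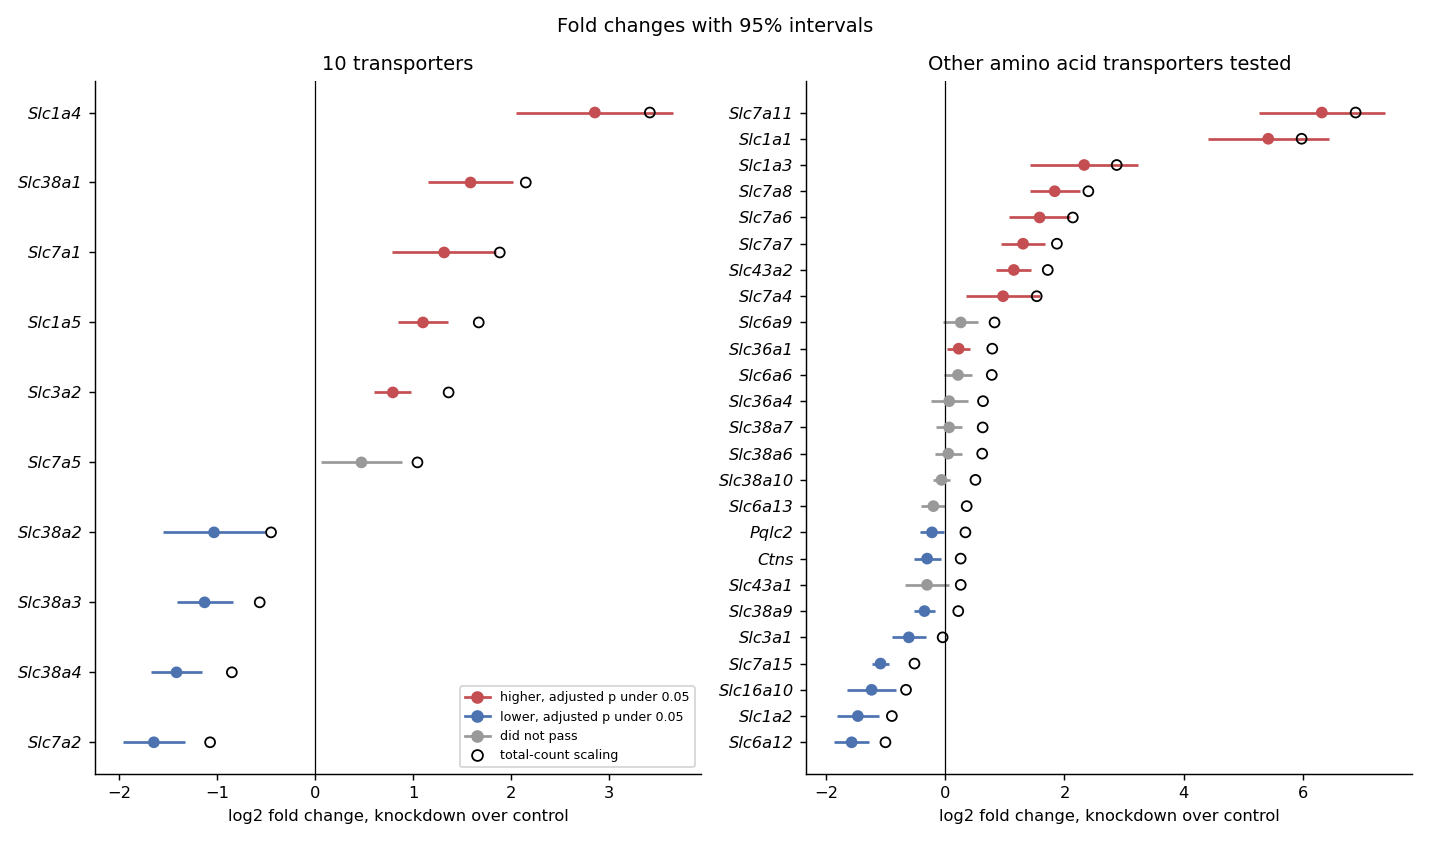
Log2 fold change of knockdown over control (horizontal axes) with unadjusted 95% intervals, for the 10 transporters (left) and the 25 other amino acid transporters tested (right). Filled points are coloured by the edgeR call, open circles give total-count scaling, and Slc1a4 at 2.86 and Slc7a2 at -1.65 are the extremes of the 10.

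The library that lay nearest the other group was the same for most members. Among the 9 members called, control replicate 4 was the control nearest the knockdown samples for 8, and knockdown replicate 3 the knockdown sample nearest the controls for 8. Slc38a2 was the exception for both. Among 7714 genes called without overlap, the same libraries were nearest for 51.1% and 48.3%. With both left out, 6 members rose and 4 fell. The 2 libraries are also the lowest control and the highest knockdown sample in Eif4ebp3, and the part of the residual target in these values was not tested.

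In the authors' deposited table, in which a fold change of at least 2 is also required, 8 of the 10 members are marked as significant (4 up, 4 down), against 21.5% of the 15375 genes tested here (14.8% up, 6.7% down). Here too the excess can follow from the choice of members, made with earlier results of these data known. The authors' deposited table gives log2 fold changes of 2.57 for Slc1a4 and -1.63 for Slc7a2. Slc3a2 at 0.79 and Slc7a5 at 0.47 are listed in the authors' deposited table with adjusted p-values of 2.61e-14 and 0.0468 and are not marked.

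Levels can be compared between genes only per length, here as CPM per kilobase of the gene length that the authors list. In the controls the order from high to low was Slc38a4 (436 ± 28.8), Slc7a2 (358 ± 66.1), Slc38a3 (307 ± 22.3), Slc38a2 (46.2 ± 20.2), Slc3a2 (12.8 ± 0.79), Slc1a5 (1.98 ± 0.165), Slc7a5 (1.05 ± 0.157), Slc1a4 (0.807 ± 0.484), Slc38a1 (0.483 ± 0.124) and Slc7a1 (0.275 ± 0.0648 CPM per kilobase; SD, n = 4). The ranges of the neighbours Slc38a4 and Slc7a2, Slc7a2 and Slc38a3, Slc7a5 and Slc1a4, and Slc1a4 and Slc38a1 overlapped, and the other neighbours were apart. Compared within a library, Slc38a4 stood above Slc7a2, and Slc1a4 above Slc38a1, in every control. The order of Slc7a2 and Slc38a3 and that of Slc7a5 and Slc1a4 were reversed in control replicate 4 only. In the knockdown samples Slc1a4, at 5.88 ± 1.88 CPM per kilobase, stood sixth, above Slc1a5 at 4.24 ± 0.369, and their ranges overlapped. With merged exons of the annotation as the length, Slc38a3 stood above Slc7a2 in the controls (183 against 144 CPM per kilobase), and the 4 genes that fell still held the first 4 places there. In the knockdown samples, with that length, Slc3a2 stood above Slc38a2 (17.7 against 11.9 CPM per kilobase).

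Summed over the 10 genes, the level was 1246, 1166, 1246 and 999.8 CPM per kilobase in the controls and was 428, 443, 558 and 477 CPM per kilobase after the knockdown. Slc7a2, Slc38a2, Slc38a3 and Slc38a4 held 98.5 ± 0.291% of this sum in the controls and 92.3 ± 1.81% after the knockdown (n = 4 each, SD). The other 6 members together went from 17.4 ± 1.51 to 35.9 ± 4.82 CPM per kilobase. Slc7a5, which did not pass the test, is among these 6. The share of Slc7a2 in the sum was 30.6 ± 2.9% against 24 ± 0.307%, and that of Slc3a2 1.11 ± 0.182% against 4.73 ± 0.94%. The size of the fall of the summed level depends on the scaling. Without the normalisation factor or gene length, the 10 genes held 0.349 ± 0.0179% of a library's gene counts in the controls. After the knockdown they held 0.21 ± 0.0153% (SD, n = 4 each). No test was made on these sums and shares, which were composed after the direction of each member was known.

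**Figure D3:**
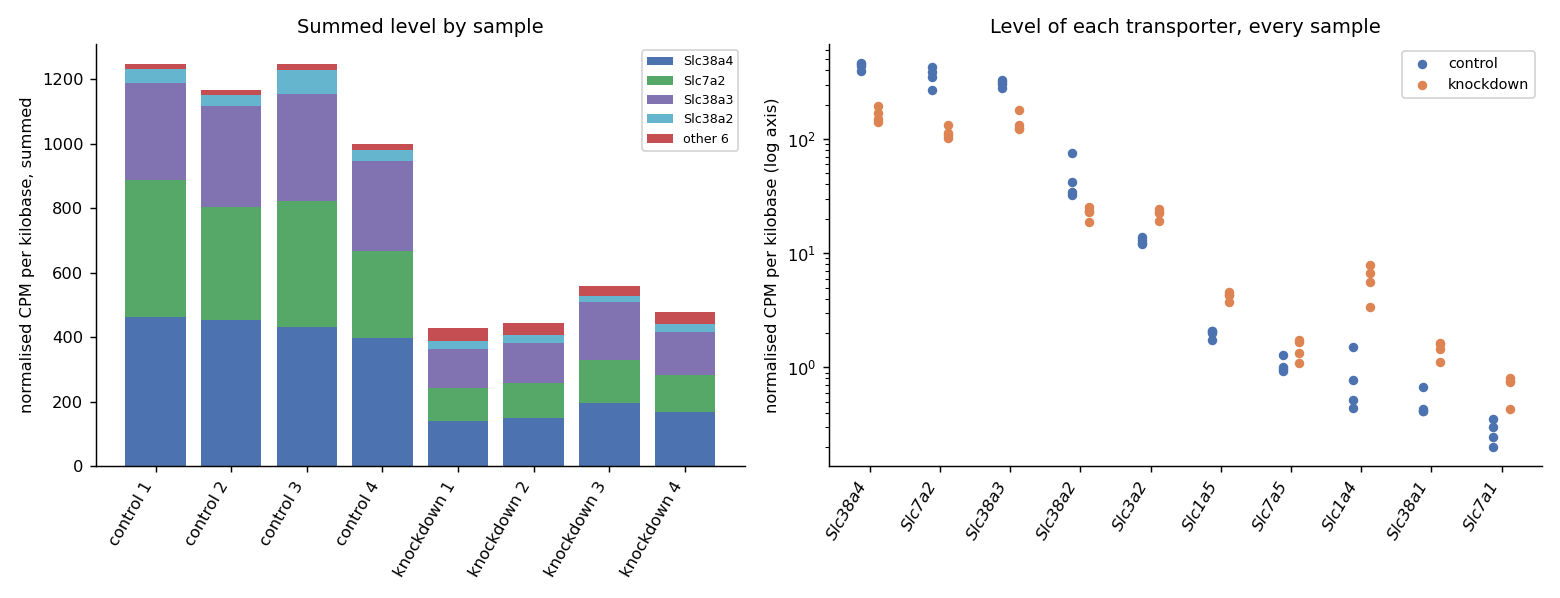
Left, summed CPM per kilobase of the 10 transporters by library, with the 4 most abundant genes and the other 6 stacked. Right, CPM per kilobase of each gene in every library (log axis), ordered by the control mean from Slc38a4 to Slc7a1.

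The direction of a call went with abundance over all genes too. Among the 725 genes tested with a mean over all 8 samples above 100 CPM per kilobase, where Slc7a2, Slc38a3 and Slc38a4 stand, 63.9% fell and 12% rose. Among the 3434 genes under 1 CPM per kilobase, where Slc7a1 and Slc38a1 stand, 34.9% rose and 13.5% fell. For Slc3a2 and Slc38a2, between 10 and 100 CPM per kilobase, the shares were 22.1% and 41.3%, and between 1 and 10, the class of Slc1a4, Slc1a5 and Slc7a5, 33.3% and 22.4%. The classes were set after the data were seen, and the part of this tendency in the members' values was not tested.

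Ratios of 2 genes within a library do not depend on its scaling, and 5 pairs of like role were compared, where a test could add to the calls of the single genes by an exact two-sided permutation test over the samples, for which the smallest p that 4 against 4 allows is 0.0286. The log2 ratio of Slc7a1 to Slc7a2 counts was -10.1, -9.48, -9.36 and -8.62 in the controls and -6.1, -6.11, -7.29 and -6.29 in the knockdown samples. The difference was 2.93, a 7.63-fold shift towards Slc7a1. Since Slc7a1 lay above and Slc7a2 below its controls in every knockdown library, this ratio had to separate the groups, and it is given as a description with no p. Slc7a2 still exceeded Slc7a1 in counts in every knockdown library.

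The log2 ratio of Slc38a1 to Slc38a3 went from -8.18 ± 0.428 to -5.44 ± 0.524 (SD, n = 4 each), and that of Slc1a4 to Slc1a5 from -0.95 ± 0.693 to 0.92 ± 0.434. The first difference, 2.74, is likewise a description, since both genes were already apart in opposite directions. The second, 1.86, between genes that both rose, had no overlap between groups (exact permutation p = 0.0286, adjusted over the 5 ratios p = 0.0476). That adjustment includes Slc7a1/Slc7a2 and Slc38a1/Slc38a3, whose separation was fixed beforehand and which lower the adjusted p. No call of Slc1a4/Slc1a5 is therefore drawn from it. In the SLC1 pair, Slc1a5 had more counts than Slc1a4 in control replicates 1 to 3, with log2 ratios of -1.43, -1.46 and -0.92, and about as many in control replicate 4 (0.02). In every knockdown library Slc1a4 had more (1.37, 1.13, 0.37 and 0.78).

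The ratios of the remaining pairs did not pass even with that adjustment. The log2 ratio of Slc7a5 to Slc3a2 was -3.29 ± 0.247 in the controls and -3.63 ± 0.212 in the knockdown samples, with overlap (difference -0.34, exact permutation p = 0.114, adjusted p = 0.143). That of Slc38a2 to Slc38a4 was -3.08 ± 0.565 against -2.61 ± 0.351 (difference 0.47, exact permutation p = 0.286, adjusted p = 0.286). In the latter pair control replicate 3, at -2.27, was above all knockdown samples. For Slc1a4/Slc1a5, of which no call is drawn, the adjusted exact permutation p was above 0.05 when any 1 knockdown replicate was left out. Its difference was then 1.71 to 2.04 (log2).

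**Figure D4:**
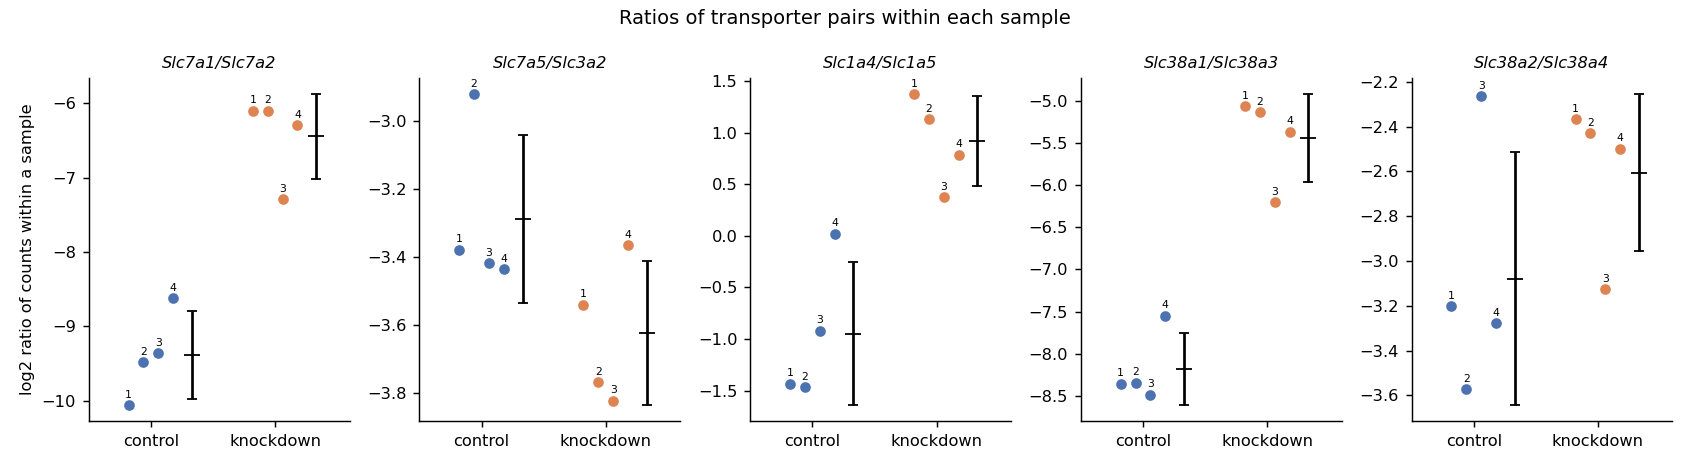
Log2 ratio of counts of 5 transporter pairs within each library (vertical axes), with replicate numbers on the points and the mean with SD (n = 4) beside them. The groups are apart for Slc7a1/Slc7a2, Slc1a4/Slc1a5 and Slc38a1/Slc38a3 and overlap for the other pairs.

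Slc3a2 carries other light chains besides Slc7a5, all from the SLC7 family. Per length, the 6 light chains together held 5.27, 6.24, 4.95 and 7.11 CPM per kilobase in the controls and 22.4, 17.1, 14.6 and 17 in the knockdown samples. Their sum over Slc3a2 was 0.461 ± 0.0659 in the controls and 0.798 ± 0.086 after the knockdown (n = 4 each, SD). Slc7a8, a light chain for neutral amino acids, and Slc7a7, which exports cationic amino acids, were the most abundant in both groups. Slc7a5 held 17.9 ± 2.74% of the light chain sum in the controls and 8.21 ± 1.34% in the knockdown samples. Slc7a11, the cystine and glutamate exchanger, went from 0.25 ± 0.253% to 7.61 ± 1.61%, and Slc7a10 was listed at 0 in every library. This composition was set after the values were seen and was not tested.

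**Figure D5:**
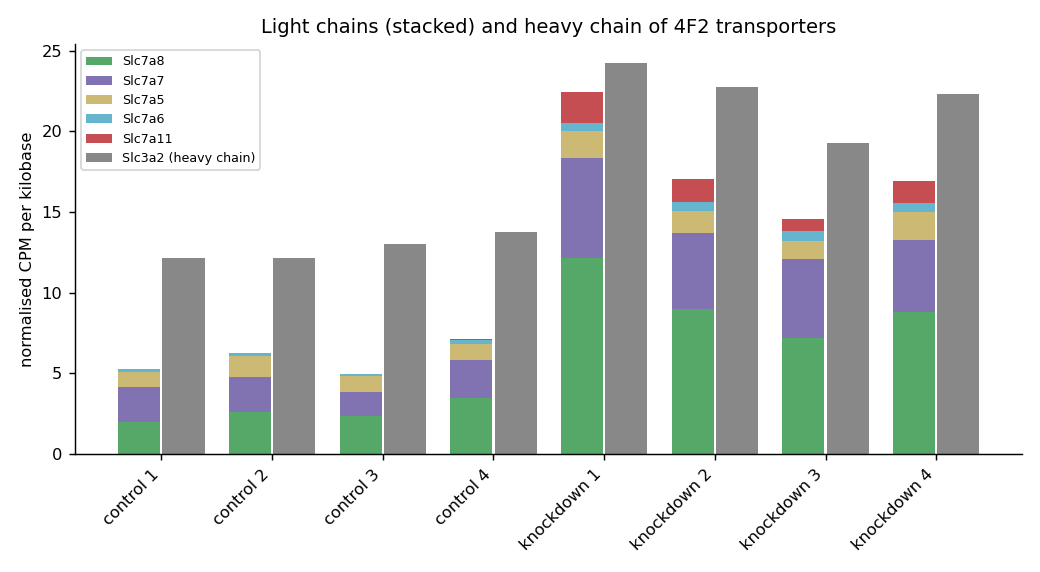
CPM per kilobase (vertical axis) of the light chains that pair with Slc3a2, stacked, beside Slc3a2 itself, in each library. Light chains sum to 4.95 to 7.11 in the controls and 14.6 to 22.4 in the knockdown samples.

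Other amino acid transporter genes, from families SLC1, SLC3, SLC6, SLC7, SLC16, SLC36, SLC38 and SLC43 and 2 lysosomal exporters, numbered 47, of which 25 passed the count filter. Of these 25, 9 rose, 8 fell and 8 did not pass, near the shares over all genes (29.5% higher, 27.8% lower), with a median log2 fold change of 0.06, and under total-count scaling 17 rose and 4 fell (median 0.63). Slc7a11 rose from 0.0480 to 0.411 CPM in the controls to 7.02 to 17.95 CPM in the knockdown samples, by 6.32 ± 0.48 (log2, SE), or 7.52 without control replicate 4. Its control values rest on 1, 2, 1 and 9 counts, and it passed the count filter through the knockdown samples, as did Slc1a3, which had 1 to 3 counts in each control and 12 to 19 in each knockdown library. Slc1a1, a glutamate carrier, was at 1 or 2 counts in each control against 47 to 150 in the knockdown samples and passed the filter the same way. Of its exon bases 31.9% are shared with 4430402I18Rik on the opposite strand. Slc7a8 rose by 1.84 ± 0.19 and Slc43a2, a carrier of large neutral amino acids, by 1.15 ± 0.13 (log2, SE; edgeR adjusted p = 1.65e-05 and 3.47e-05), and 9.18% of the exon bases of Slc43a2 lie opposite Gm45606.

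Among those that fell, Slc7a15 went from 103 ± 1.35 to 48.3 ± 2.76 CPM, with libraries close together in each group. Slc6a12, a betaine and GABA carrier, went from 92.9 ± 10.4 to 31.3 ± 5.99 CPM, and Slc1a2, the glutamate carrier known from pericentral hepatocytes, from 169 ± 21.4 to 61.3 ± 14.7 CPM (SD, n = 4 each). Slc16a10, a carrier of aromatic amino acids, fell by 1.24 ± 0.19 on the log2 scale (SE; edgeR adjusted p = 0.00023). Of the 4 other SLC38 genes tested, 0 rose and 1 fell (Slc38a9), and under total-count scaling 3 rose and 0 fell.

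For the 3 members highest per length, the gene nearest in pattern was sought among 15365 other genes, by the root mean square difference of centred log2 CPM over the 8 samples. It was Marc1 for Slc38a4 (difference 0.044), Crp for Slc7a2 (0.0512) and Fah, an enzyme of tyrosine breakdown, for Slc38a3 (0.0471). Fah, for example, held 513, 508, 529 and 451 CPM in the controls and 198, 218, 298 and 232 CPM in the knockdown samples.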

How the data were processed

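Liver RNA from 4 control and 4 knockdown samples was compared. In the submitters' processing notes the tools were SAMtools 1.9, GATK 3.8, Bowtie2 2.2.9 and fastp 0.19.5, on build mm10. Counting program, annotation, strandedness: not given in the sources used here. As deposited by the authors, the values are estimated counts per gene, not normalised, and 10.9% of them are not whole. They were rounded, and 645 assembled loci without a gene name (0.676 to 1.08% of a sample's counts) were left out. The authors' deposited table lists, per the file headers, a fold (ratio) of knockdown over control, its log2, a p-value, an adjusted p-value and a gene length per gene. How that length was defined is not stated.

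Columns were assigned by the sample codes in the labels. In R 4.3.3, edgeR 4.0.16 (filterByExpr, TMM, glmQLFit, glmQLFTest) was fitted over all 15375 genes kept, with Benjamini-Hochberg adjustment; rose, fell and called mean an adjusted p under 0.05. Ratios used rounded counts plus 0.5. On simulated data, 74% of 100 genes changed by 1 and 97% of 100 changed by 2 (log2) were recovered. Only these genes were changed, evenly up and down, so the simulation does not test the scaling where 57.2% of genes are called. Replicates differed by more than counting error (lowest chi-square per degree of freedom 8.94). Positions are those of GENCODE M21, on the same build, and 27 names stored as dates were restored by identifier.

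The members, lists and tests were chosen with earlier results of these data known. Genes named by rule are the members, Eif4ebp3, up to 4 other transporters per direction with the smallest p, and nearest genes for the 3 members highest per length. Slc38a9 and Slc1a3 are named outside this rule. Chosen after their values were seen were Slc7a5's fellow light chains, including Slc7a10, Slc7a7's motif and overlapping genes. Alternatives were other scalings, DESeq2 1.42.0, limma-voom (limma 3.58.1), other filters, the replicate number or code letter as covariate, and left-out samples.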

Additional observations from a re-analysis of the deposited data

Results flagged for a closer look

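In 4 of 30 groups of 4 values tested (10 genes and 5 ratios in each group of samples), 1 library stood apart from the other 3 by Dixon's criterion, which chance meets in about 1 of 20 groups. Slc38a1 was at 4.66 CPM in control replicate 4 against 2.88 to 3.04 CPM in the other controls. The log2 ratio of Slc38a1 to Slc38a3 was -7.55 in the same library, against -8.49 to -8.34 in the others. The log2 ratio of Slc7a1 to Slc7a2 was -7.29 in knockdown replicate 3, against -6.29 to -6.1 in the other knockdown samples. That of Slc7a5 to Slc3a2 was -2.92 in control replicate 2, against -3.44 to -3.38 in the other controls.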

How the results depend on the processing

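Over 19 alternatives, 5 or 6 members rose and 3 or 4 fell, and no gene named by the rule above changed direction. Other genes named in the text were not followed over these alternatives. Of them, Slc38a9 went from -0.35 to 0.22 (log2) under total-count scaling, where it did not pass. Counts of other transporters moved under total-count scaling alone, to 17 higher and 4 lower, from 9 and 8, and over all genes to 9831 and 1187, from 4528 and 4272. Slc7a5 passed under 8 alternatives, and Slc38a2 failed under total-count scaling (-0.45). With 3 against 3 or 4 pairs the exact test cannot go below 0.1 or 0.125, so no ratio could pass there. They were 3.13 (Slc7a1/Slc7a2), 2.23 (Slc1a4/Slc1a5) and 2.93 (Slc38a1/Slc38a3) in samples coded C only, and 3.47, 2.37 and 3.21 without control replicate 4 and knockdown replicate 3, an alternative chosen after the data were seen. Leaving out 1 sample gave 2.70 to 3.21 for Slc7a1/Slc7a2, 1.69 to 2.19 for Slc1a4/Slc1a5, 2.61 to 2.99 for Slc38a1/Slc38a3, -0.42 to -0.21 for Slc7a5/Slc3a2 and 0.31 to 0.74 for Slc38a2/Slc38a4. The adjusted p of Slc1a4/Slc1a5 rose above 0.05 without any 1 knockdown replicate (exact permutation). Without knockdown replicate 4, Slc7a5/Slc3a2 was -0.42 (exact permutation, adjusted p = 0.0476). This adjustment too includes Slc7a1/Slc7a2 and Slc38a1/Slc38a3, whose separation was fixed beforehand, so no call is drawn from it. Slc38a2/Slc38a4, 0.47 in all samples, was 0.74 without control replicate 3 and 0.31 without control replicate 2 and passed in neither.

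Samples share replicate numbers, but deviations of same-numbered samples correlated at -0.18, -0.03, 0.06 and 0.17, so the numbers were not taken as pairs, and not every sample correlated best with its own number. With the replicate block 5 members rose and 4 fell, 9 and 6 other transporters did, and the paired ratios were 2.93, 1.86 and 2.74 (adjusted p = 0.208 by exact permutation for Slc1a4/Slc1a5). Low counts limit Slc7a1, Slc7a5, Slc38a1 and Slc1a4 in the controls.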
